A study of Homo sapiens with 2 samples.

Results

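The lysosome is the acidic compartment in which cells break down proteins, lipids and sugars, and 41 of its genes are described here, of the 58735 gene identifiers in the deposited tables. They were taken by name: 15 genes of the proton pump (V-ATPase), 9 cathepsins, 8 hydrolases and their activator, 6 proteins of the lysosomal membrane and of cholesterol transport, and the 3 transcription factors TFEB, TFE3 and MITF. RNA sequencing had been done on BT549, a mesenchymal triple-negative breast cancer cell line. In the shSIK2 group the kinase SIK2, of the salt-inducible family, was knocked down by a hairpin (shRNA), and the scrambled group held the control hairpin. Both were treated with Wnt3a, a ligand of the Wnt pathway, for 2 h, so neither shows the cells without it. Each group held 1 library, and the number of hairpins or clones behind it was not stated.

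With 1 library per group no difference below has a replicate check, and no test or p-value is given. Levels are FPKM, reads scaled for gene length, as deposited. Folds are ratios of the reads recovered from them, shSIK2 over scrambled or its inverse, with 95% intervals that cover counting error only and treat each read as a separate molecule, which PCR copies are not. The recovered reads came to 16347399 in the shSIK2 library and 18019225 in the scrambled library, and the deposited values are not scaled to these totals. Scaling to equal totals adds 0.14 to every log2 ratio of reads, and slightly less for low genes where the pseudocount given below is added. It moves the median of all 12866 genes measured (at least 1 FPKM in the higher library) from -0.11 to 0.03. A gene is called past 2-fold, higher or lower, by its log2 ratio of FPKM + 0.1, a pseudocount that pulls low genes toward 0, so a printed fold of reads slightly above 2 can fall short of the call. Group medians are also given relative to that median. SIK2 itself was lower by 2.19-fold in the shSIK2 library (95% counting interval 1.99 to 2.42). At equal totals SIK2 was 1.99-fold lower, with a log2 ratio of -0.97, just short of the 2-fold call. VIM, CD44 and FN1, mesenchymal genes of this line, stood at 283, 173 and 9.82 FPKM in the shSIK2 library and at 260.3, 145 and 12.96 FPKM in the scrambled library. Of 5 epithelial and receptor genes, EPCAM and PGR had 0 reads in both, ESR1 had 0 reads in the shSIK2 library and 6 in the scrambled library, and CDH1 had 2 in the shSIK2 library and 11 in the scrambled library. ERBB2 stood at 6.75 FPKM in the shSIK2 library and 4.96 FPKM in the scrambled library. None of 9 macrophage and osteoclast markers, genes of cells rich in lysosomes, reached 1 FPKM. Their FPKM summed to 0.889 in the shSIK2 library and 0.708 in the scrambled library, and LYZ, DCSTAMP and OCSTAMP were at 0 in both. The 4 T and B cell markers also had 0 reads in both libraries, and the 6 endothelial and adipocyte markers had 7 reads in the shSIK2 library and 5 in the scrambled library.

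Lysosomal enzymes work at low pH, which the V-ATPase maintains by pumping protons across the membrane: its V1 sector in the cytosol burns ATP, and its V0 sector in the membrane carries the protons. Cathepsins are the proteases of the lumen, and glycosidases such as GLA and HEXA cleave sugars from glycolipids and glycoproteins. TFEB, TFE3 and MITF bind a palindromic DNA element named CLEAR near the start of many of these genes. When the kinase mTORC1 is active on the lysosome, it keeps these factors in the cytosol.

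All 41 genes were measured, 39 of them with at least 1 FPKM in both libraries. TFEB and ATP6V0C passed that minimum only through the shSIK2 library. Together the 41 genes took 1.49% of the reads in the shSIK2 library and 1.496% in the scrambled library, and their median level was 23.1 FPKM in the shSIK2 library and 22.6 FPKM in the scrambled library. CTSH and CTSF, 2 genes of the 41 (4.88%), were higher by at least 2-fold, where 11.0% of all genes measured were. CTSC, CTSK and NPC1, 3 of the 41 (7.32%), were lower by at least 2-fold, where 8.28% of all genes measured were. Among protein-coding genes 8.41% were higher and 6.64% lower, and among genes with at least 5 FPKM 5.61% were higher and 7.19% lower. The shares of the 41 lay below or near these, so the 2 counts are no result about the 41 genes as a group and serve to describe 5 named genes. At equal totals 3 genes were higher, ATP6V0C among them, and 3 lower, where 13.4% and 6.04% of all genes measured were. At 1.5-fold, 5 genes were higher and 5 lower, where 19.7% and 21.3% of all genes measured were. Within 1.5-fold lay 31 of the 41 genes (75.6%), against 59.0% of all genes measured and 64.3% of those with at least 5 FPKM. The median log2 ratio was -0.06, or 0.05 relative to all genes measured. The sign of 7 genes depends on the scaling: ATP6V0B, ATP6AP2, CTSB, CTSD, TPP1, LAMP1 and SCARB2 lay below 0 as deposited and at or above 0 at equal totals.

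**Figure D1:**
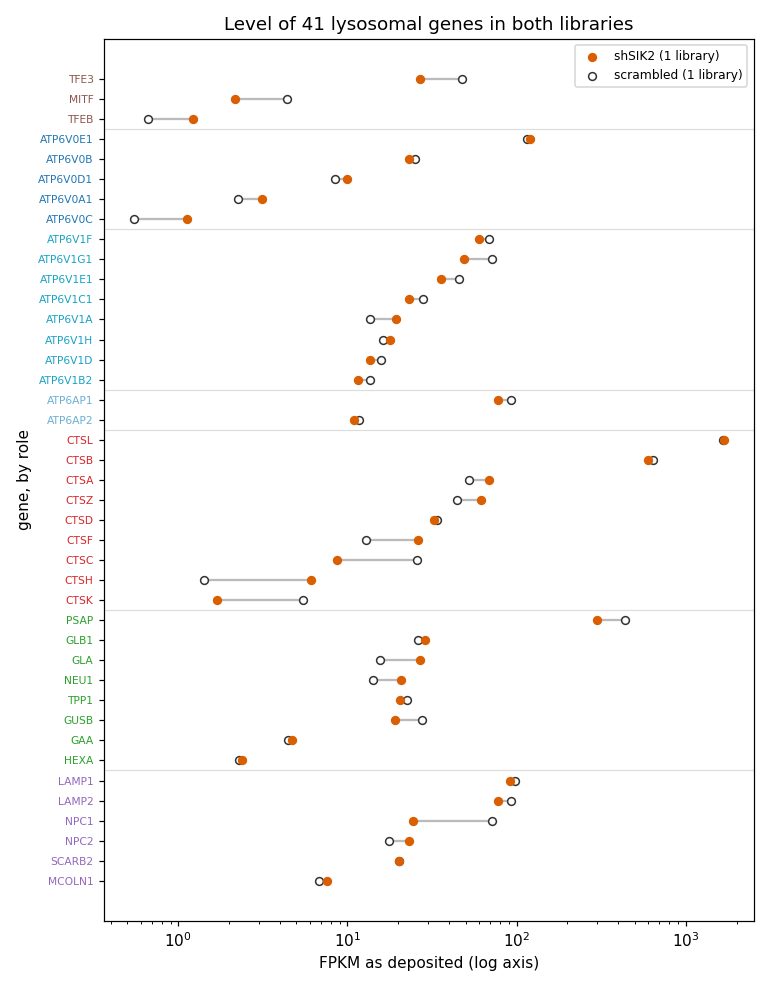
FPKM as deposited on a log axis for each of the 41 genes, shSIK2 as filled points and scrambled as open points, ordered by role and, within a role, by level in the shSIK2 library. Levels span from 1.13 FPKM (ATP6V0C) to 1685 FPKM (CTSL) in the shSIK2 library, and the widest gaps between the points are those of CTSH, CTSK, CTSC and NPC1.

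Of the 3 MiT/TFE factors, TFE3 was by far the most abundant. TFE3 and MITF were lower in the shSIK2 library, and TFEB, at a low level, was higher. TFE3 (ENSG00000068323, GRCh38 chromosome X, 49028726 to 49043486) stood at 26.98 FPKM in the shSIK2 library and 47.4 FPKM in the scrambled library, lower by 1.76-fold in the shSIK2 library (95% counting interval 1.66 to 1.86). MITF (ENSG00000187098, GRCh38 chromosome 3, 69739435 to 69968337), best known as the factor of melanocytes and osteoclasts, stood at 2.17 FPKM in the shSIK2 library and 4.40 FPKM in the scrambled library. It was lower by 2.02-fold in the shSIK2 library (95% counting interval 1.74 to 2.35), and its log2 ratio with the pseudocount of 0.1 FPKM was -0.98, just short of the call. TFEB (ENSG00000112561, GRCh38 chromosome 6, 41683978 to 41736259) stood at 1.22 FPKM in the shSIK2 library and 0.660 FPKM in the scrambled library, from 118 reads in the shSIK2 library and 64 in the scrambled library, higher by 1.84-fold in the shSIK2 library (95% counting interval 1.35 to 2.54). With that pseudocount none of the 3 was past 2-fold, and with one of 0.01 MITF was. Their summed level was 30.4 FPKM in the shSIK2 library and 52.5 FPKM in the scrambled library, nearly all of it TFE3. On reads at equal totals TFE3 was 1.60-fold and MITF 1.83-fold lower, and TFEB 2.03-fold higher.

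The element these factors bind can be read in the promoters. RefSeq promoter windows (GRCh38.p14, 250 bases before to 50 after the annotated start) were matched by symbol for 31 of the 41 genes. The core of the CLEAR element, TCACGTGA, which reads the same on both strands, was present in a window of 6 of these (19.4%), against 0.979% of 34943 windows of the same length. The shorter E-box CACGTG, which every TCACGTGA contains, was present in 10 (32.3%), against 7.23% of all windows. A gene counted if any of its windows held the letters, whereas the background counts single windows, so these shares have unlike units. Such a match describes the letters and is not a measured binding site. The 6 genes with TCACGTGA were ATP6V0D1, ATP6V1G1, CTSA, GAA, LAMP1 and MCOLN1, and the windows of the 4 with the largest differences between the libraries are printed 5′ to 3′, the match in capitals.
ATP6V1G1 (chr9:114587519-114587818, plus strand): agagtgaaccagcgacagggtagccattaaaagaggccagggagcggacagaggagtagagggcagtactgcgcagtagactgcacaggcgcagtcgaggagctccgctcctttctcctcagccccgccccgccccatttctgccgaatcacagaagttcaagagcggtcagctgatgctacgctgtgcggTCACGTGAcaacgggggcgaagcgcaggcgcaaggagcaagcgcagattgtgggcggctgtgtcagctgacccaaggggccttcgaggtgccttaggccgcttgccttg
CTSA (chr20:45891085-45891384, plus strand): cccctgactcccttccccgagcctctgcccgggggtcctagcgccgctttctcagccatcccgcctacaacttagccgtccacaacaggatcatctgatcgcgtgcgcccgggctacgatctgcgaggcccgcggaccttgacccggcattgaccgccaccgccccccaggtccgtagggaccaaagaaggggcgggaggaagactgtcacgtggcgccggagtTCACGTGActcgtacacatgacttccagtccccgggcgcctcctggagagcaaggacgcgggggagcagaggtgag
ATP6V0D1 (chr16:67481108-67481407, minus strand): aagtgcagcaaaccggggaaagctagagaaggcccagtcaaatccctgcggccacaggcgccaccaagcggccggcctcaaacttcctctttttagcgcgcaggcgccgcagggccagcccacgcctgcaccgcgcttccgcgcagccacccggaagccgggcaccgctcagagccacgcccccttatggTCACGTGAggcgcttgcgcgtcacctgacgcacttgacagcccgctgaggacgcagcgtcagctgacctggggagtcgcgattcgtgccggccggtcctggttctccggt
MCOLN1 (chr19:7522374-7522673, plus strand): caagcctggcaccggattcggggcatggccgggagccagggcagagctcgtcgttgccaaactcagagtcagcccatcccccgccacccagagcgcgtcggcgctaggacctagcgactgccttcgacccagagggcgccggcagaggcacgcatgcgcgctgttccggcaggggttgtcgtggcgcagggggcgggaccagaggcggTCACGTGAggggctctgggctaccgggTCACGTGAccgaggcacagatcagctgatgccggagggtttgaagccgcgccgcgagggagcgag
The match begins 59 bases before the start in ATP6V1G1, 26 in CTSA and 60 in ATP6V0D1, and MCOLN1 holds 2 matches, the first 42 bases before it. The 6 genes did not share a direction under either scaling. As deposited the log2 ratios were 0.41 for CTSA, 0.23 for ATP6V0D1, 0.16 for MCOLN1, 0.08 for GAA, -0.10 for LAMP1 and -0.54 for ATP6V1G1. At equal totals LAMP1 stood at 0.04, and ATP6V1G1 alone lay below 0, at -0.40. None of the 6 was past 2-fold. Of the 5 genes past 2-fold, CTSF held CACGTG in its window, CTSC, CTSH and NPC1 did not, and CTSK was not among the windows.

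Within 1.5-fold lay 59.0% of all genes measured and 64.3% of those with at least 5 FPKM. Of the 15 proton pump genes, 14 lay there (93.3%). The exception was ATP6V0C, at 2.07-fold higher on few reads, which the pseudocount holds short of the 2-fold call and which passes it at equal totals or with a pseudocount of 0.01. The pump's summed level was 476 FPKM in the shSIK2 library and 528 FPKM in the scrambled library. Its median log2 ratio was -0.13 as deposited, -0.02 relative to all genes measured, and 0.01 at equal totals. The 8 V1 genes had a median of -0.23 and the 5 V0 genes one of 0.23, or -0.12 and 0.34 relative to all genes. GC content ran from 39.7% to 54.3% in the V1 genes and from 44.1% to 63.6% in the V0 genes. With the trend in GC content and exon length removed, the log2 ratios of the V1 genes ran from -0.33 to 0.75. Those of the V0 genes then ran from -0.23 to 0.62. The part of GC content in the gap between the medians was not tested beyond this.

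In the V1 sector, ATP6V1A, the subunit that binds and splits ATP, was the highest of the 8 relative to the scrambled library. It stood at 19.3 FPKM in the shSIK2 library and 13.6 FPKM in the scrambled library, higher by 1.42-fold in the shSIK2 library (95% counting interval 1.32 to 1.53). Its partner in the catalytic ring, ATP6V1B2, stood at 11.5 FPKM in the shSIK2 library and 13.6 FPKM in the scrambled library and was 1.19-fold lower (1.11 to 1.27). The pair of the ring thus lay on opposite sides of equal reads, under both scalings. With the trend in GC content and exon length removed, both lay above 0, ATP6V1A at 0.75 and ATP6V1B2 at 0.05. ATP6V1G1, a subunit of the peripheral stalks, lay lowest, at 48.9 FPKM in the shSIK2 library and 71.3 FPKM in the scrambled library, lower by 1.46-fold in the shSIK2 library (95% counting interval 1.35 to 1.58). ATP6V1E1, which pairs with it in those stalks, stood at 35.9 FPKM in the shSIK2 library and 45.5 FPKM in the scrambled library. Stalk and rotor genes all lay lower as deposited, by less than 1.5-fold, where 55.9% of all genes measured lay under 0. Among genes with at least 5 FPKM 63.6% did. With the trend in GC content and exon length removed, ATP6V1D stood at 0.01 and the other stalk and rotor genes from -0.10 to -0.33. The central rotor gene ATP6V1D stood at 13.6 FPKM in the shSIK2 library and 15.9 FPKM in the scrambled library, and its partner ATP6V1F at 60.2 FPKM in the shSIK2 library and 68.3 FPKM in the scrambled library. ATP6V1C1 and ATP6V1H, which join the sectors and control their assembly, had log2 ratios of -0.28 and 0.14. ATP6V1C1 was at 23.1 FPKM in the shSIK2 library and 28.1 FPKM in the scrambled library, and ATP6V1H at 17.97 FPKM in the shSIK2 library and 16.3 FPKM in the scrambled library.

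In the V0 sector, ATP6V0E1, a small membrane subunit, was the most abundant pump gene, at 119.9 FPKM in the shSIK2 library and 115 FPKM in the scrambled library, a 1.05-fold ratio whose counting interval (0.997 to 1.10) includes 1. ATP6V0B, of the proton-carrying ring, stood at 23.1 FPKM in the shSIK2 library and 25.2 FPKM in the scrambled library. The ratio of ATP6V0B is 1 of those whose sign turns with the scaling. ATP6V0D1, the collar that links the ring to V1, stood at 9.92 FPKM in the shSIK2 library and 8.44 FPKM in the scrambled library and was 1.18-fold higher (1.09 to 1.27). ATP6V0C, the main ring subunit, had the largest log2 ratio of the pump, 0.93, on few reads: 29 reads in the shSIK2 library and 14 in the scrambled library, 2.07-fold higher (1.06 to 4.24). Its low count needs care, since 72.1% of its exon bases also lie in exons of other genes on the same strand, and how reads in shared exons were assigned was not stated. The main one, AC093525.2, had 1 read in the shSIK2 library and 0 in the scrambled library. The accessory genes ATP6AP1 and ATP6AP2, needed for assembly of the pump, stood at 77.2 and 10.9 FPKM in the shSIK2 library and at 92.3 and 11.7 FPKM in the scrambled library, the second again of a sign that turns with the scaling.

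The a subunit of V0 exists as 4 isoforms that direct the pump to different membranes, and here the balance between them differed. ATP6V0A1 stood at 3.12 FPKM in the shSIK2 library and 2.26 FPKM in the scrambled library, 1.38-fold higher (1.22 to 1.57). TCIRG1 (the a3 isoform, needed for bone resorption by osteoclasts), a gene outside the 41, stood at 38.7 FPKM in the shSIK2 library and 13.9 FPKM in the scrambled library, from 2909 reads in the shSIK2 library and 1043 in the scrambled library, higher by 2.79-fold in the shSIK2 library (95% counting interval 2.60 to 2.996). TCIRG1 was the most abundant isoform in both libraries, with 88.1% of the summed FPKM of the 4 isoforms in the shSIK2 library and 72.5% in the scrambled library. ATP6V0A2, an isoform of the Golgi, stood at 1.89 FPKM in the shSIK2 library and 2.61 FPKM in the scrambled library, and ATP6V0A4 was below 1 FPKM in both. GC content is 65.5% in TCIRG1 and 43.6% in ATP6V0A2, and over all genes measured the log2 ratio rose with GC content. In bins of genes at 65.9% and 43.4% GC the median log2 ratios were 0.49 and -0.21. The part of GC content in this balance was not tested. Over the wider list of 15 other pump subunits and assembly factors, 9 were measured, 3 were at least 2-fold higher (33.3%, against 11.0% of all genes) and 0 lower. Besides TCIRG1 these were ATP6V1G2, with 61 reads in the shSIK2 library and 18 in the scrambled library, and ROGDI, with 79 reads in the shSIK2 library and 29 in the scrambled library, both close to the 1 FPKM minimum and measured only through the shSIK2 library, so that they had to differ. ROGDI shares 38.3% of its exon bases with other genes on its strand. WDR7, an assembly factor, stood at 1.05 FPKM in the shSIK2 library and 1.73 FPKM in the scrambled library.

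Among the 9 cathepsins, 2 were at least 2-fold higher and 2 lower (22.2% each, where 11.0% of all genes measured were higher and 8.28% lower), so the family had no common direction. The median log2 ratio of the 9 was 0.01, or 0.12 relative to all genes measured, with values from -1.62 to 2.03. Their summed level was 2490 FPKM in the shSIK2 library and 2483 FPKM in the scrambled library. That sum is set by CTSL and CTSB, broadly acting cysteine proteases. CTSL stood at 1685 FPKM in the shSIK2 library and 1669 FPKM in the scrambled library and ranked 14th among protein-coding genes in the shSIK2 library and 11th in the scrambled library. CTSB stood at 599.6 FPKM in the shSIK2 library and 638 FPKM in the scrambled library and ranked 27th in both. Neither differed by much, with 1.01-fold higher (0.999 to 1.02) for CTSL and 1.06-fold lower (1.05 to 1.07) for CTSB, whose sign turns at equal totals.

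CTSH, an aminopeptidase, differed most upward. It (ENSG00000103811, GRCh38 chromosome 15, 78921058 to 78949574) had 616 reads in the shSIK2 library and 143 in the scrambled library, a level of 6.09 FPKM in the shSIK2 library and 1.41 FPKM in the scrambled library, and was higher by 4.31-fold in the shSIK2 library (95% counting interval 3.59 to 5.20). CTSF, a cysteine protease with a long propeptide (ENSG00000174080, GRCh38 chromosome 11, 66563463 to 66568841), stood at 26.3 FPKM in the shSIK2 library and 12.9 FPKM in the scrambled library, from 1308 reads in the shSIK2 library and 643 in the scrambled library, higher by 2.03-fold in the shSIK2 library (95% counting interval 1.85 to 2.24). CTSF sits at the edge of 2-fold: it had a log2 ratio of 1.02 as deposited and 0.77 once the trend with GC content and exon length was removed. The 10 measured genes on each side of CTSF on chromosome 11 had a median log2 ratio of 0.55. Of these 20, 6 were at least 2-fold higher and 0 lower. For CTSH the 10 measured genes on each side of it on chromosome 15 had a median log2 ratio of 0.21. The part of neighbouring genes in these differences was not tested.

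CTSC and CTSK lay lower. CTSC, the dipeptidyl peptidase that activates granule serine proteases (ENSG00000109861, GRCh38 chromosome 11, 88293592 to 88337787), stood at 8.66 FPKM in the shSIK2 library and 25.8 FPKM in the scrambled library, from 1697 reads in the shSIK2 library and 5053 in the scrambled library, lower by 2.98-fold in the shSIK2 library (95% counting interval 2.82 to 3.15). CTSK, the collagen-degrading protease of osteoclasts (ENSG00000143387, GRCh38 chromosome 1, 150796208 to 150808323), stood at 1.70 FPKM in the shSIK2 library and 5.43 FPKM in the scrambled library, from 55 reads in the shSIK2 library and 176 in the scrambled library, lower by 3.20-fold in the shSIK2 library (95% counting interval 2.35 to 4.41). Both stayed past 2-fold at equal totals, at 2.70-fold and 2.90-fold. For CTSC the 10 measured genes on each side of it on chromosome 11 had a median log2 ratio of -0.32. For CTSK the 10 measured genes on each side of it on chromosome 1 had one of -0.48. CTSK and TCIRG1, both named above for osteoclasts, lay on opposite sides, and the osteoclast gene ACP5 had 4 reads in the shSIK2 library and 2 in the scrambled library.

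Of the other cathepsins, CTSA, a carboxypeptidase that also protects NEU1 and GLB1 in a complex, stood at 69.03 FPKM in the shSIK2 library and 52.02 FPKM in the scrambled library, 1.33-fold higher (1.28 to 1.38). CTSZ, another carboxypeptidase, stood at 61.5 FPKM in the shSIK2 library and 44.7 FPKM in the scrambled library, 1.38-fold higher (1.29 to 1.47). CTSD, the main aspartic protease, stood at 32.5 FPKM in the shSIK2 library and 33.8 FPKM in the scrambled library and did not differ beyond counting error. Its exons overlap those of AC068580.4 on the same strand over 41.7% of their bases. So the abundant proteases of the family lay within 1.5-fold, and the 4 past 2-fold were all at lower levels. Within 1.5-fold lay 5 of the 9 (55.6%), near the 59.0% of all genes measured. Of 7 further cathepsins and legumain, 3 were measured, 1 of them at least 2-fold higher and 0 lower, too few to set against the 11.0% and 8.28% of all genes measured. This was CTSV, a close relative of CTSL, with 140 reads in the shSIK2 library and 41 in the scrambled library, 3.41-fold higher (2.40 to 4.96), measured only through the shSIK2 library. LGMN, legumain, which cuts after asparagine, stood at 15.2 FPKM in the shSIK2 library and 10.1 FPKM in the scrambled library, and CTSO at 12.6 FPKM in the shSIK2 library and 9.92 FPKM in the scrambled library. Among 9 cystatins, the inhibitors of cysteine cathepsins, CSTB stood at 10.1 FPKM in the shSIK2 library and 16.8 FPKM in the scrambled library and CST3 at 16.2 FPKM in the shSIK2 library and 18.1 FPKM in the scrambled library. Neither was past 2-fold, and the other 7 cystatins were below 1 FPKM in both libraries.

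**Figure D2:**
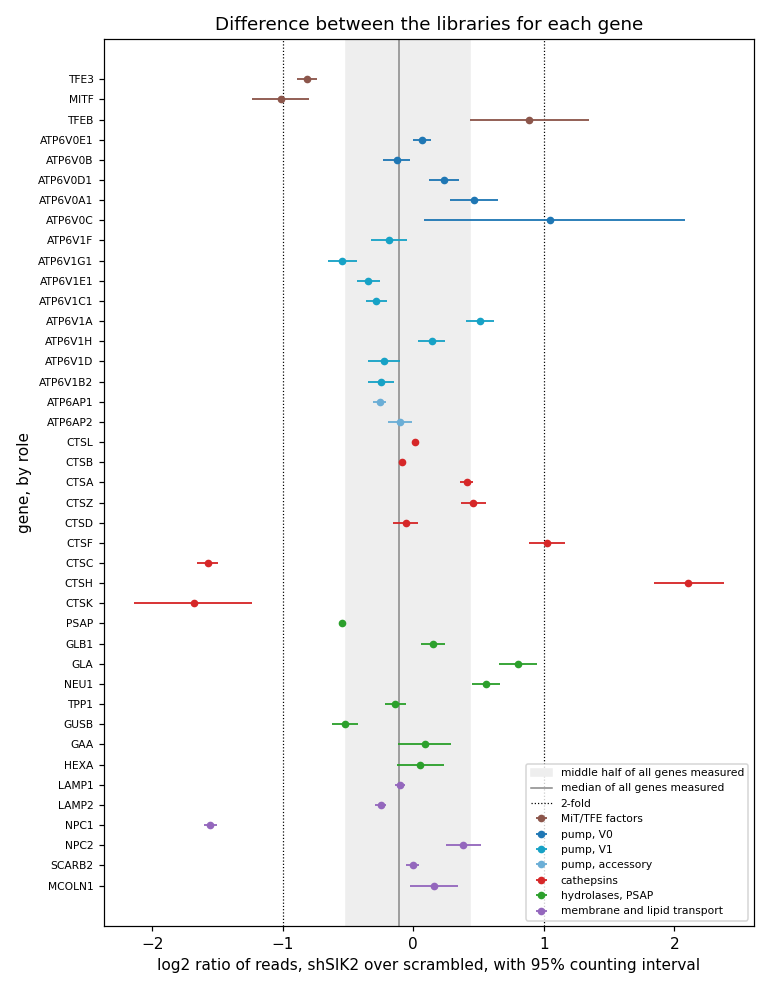
Log2 ratio of reads, shSIK2 over scrambled, for each of the 41 genes by role, with bars for the 95% counting interval, dotted lines at 2-fold and a grey band for the interquartile range of all 12866 genes measured. The pump genes cluster near 0 apart from ATP6V0C with its wide interval, while cathepsins reach from CTSK at 3.20-fold lower to CTSH at 4.31-fold higher.

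None of the 8 hydrolase genes was past 2-fold, where 11.0% of all genes measured were higher and 8.28% lower. GLA alone lay outside 1.5-fold, and 87.5% lay within it, where 59.0% of all genes measured did. The median log2 ratio of the 8 was 0.07, or 0.18 relative to all genes measured. The direction was mixed. PSAP, the precursor of the saposins that present sphingolipids to hydrolases, was the most abundant, at 301 FPKM in the shSIK2 library and 438 FPKM in the scrambled library, lower by 1.46-fold in the shSIK2 library (95% counting interval 1.43 to 1.49). GLA, alpha-galactosidase A, had the largest difference of the group, at 27.05 FPKM in the shSIK2 library and 15.5 FPKM in the scrambled library, higher by 1.74-fold in the shSIK2 library (95% counting interval 1.57 to 1.93). NEU1, the lysosomal sialidase, stood at 20.7 FPKM in the shSIK2 library and 14.1 FPKM in the scrambled library, 1.47-fold higher (1.36 to 1.58), and GLB1, the beta-galactosidase of the same complex, at 28.8 FPKM in the shSIK2 library and 25.97 FPKM in the scrambled library, 1.11-fold higher (1.04 to 1.18). CTSA, GLB1 and NEU1, the 3 genes of that complex, were thus all higher under both scalings. GUSB, beta-glucuronidase, often used as a reference gene, stood at 19.1 FPKM in the shSIK2 library and 27.5 FPKM in the scrambled library, 1.44-fold lower (1.34 to 1.54). GUSB has 11 annotated pseudogene copies, which held 195 reads in the shSIK2 library and 185 in the scrambled library. HEXA, the alpha chain of hexosaminidase, stood at 2.37 FPKM in the shSIK2 library and 2.29 FPKM in the scrambled library, and GAA, the acid alpha-glucosidase that clears glycogen, at 4.70 FPKM in the shSIK2 library and 4.43 FPKM in the scrambled library. The intervals of both include equal reads. TPP1, a tripeptidyl peptidase, stood at 20.5 FPKM in the shSIK2 library and 22.6 FPKM in the scrambled library.

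Among 30 further hydrolases and activators, 29 were measured, and their median log2 ratio was 0.26. Past 2-fold were FUCA1 and GM2A, both higher (6.90%, where 11.0% of all genes measured were). FUCA1, the alpha-fucosidase that removes fucose from glycoproteins, had 203 reads in the shSIK2 library and 20 in the scrambled library, levels of 5.78 FPKM in the shSIK2 library and 0.569 FPKM in the scrambled library, and was higher by 10.2-fold in the shSIK2 library (95% counting interval 6.40 to 16.97). It was measured only through the shSIK2 library. GM2A, the activator that lifts GM2 ganglioside out of the membrane for hexosaminidase, stood at 20.9 FPKM in the shSIK2 library and 7.23 FPKM in the scrambled library, higher by 2.89-fold in the shSIK2 library (95% counting interval 2.62 to 3.19). SGSH and IDS, enzymes of heparan sulfate breakdown, lay on opposite sides and within 2-fold as called. SGSH stood at 8.51 FPKM in the shSIK2 library and 4.30 FPKM in the scrambled library, with a log2 ratio of 0.97 that passes 2-fold at equal totals (2.18-fold), and IDS at 8.04 FPKM in the shSIK2 library and 14.2 FPKM in the scrambled library, with one of -0.82.

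Of the 6 membrane and lipid transport genes, NPC1 alone was past 2-fold, and was lower (16.7%, where 8.28% of all genes measured were). None was at least 2-fold higher, where 11.0% of all genes measured were. The median log2 ratio of the 6 was -0.05 as deposited and 0.09 at equal totals. NPC1, which moves cholesterol out of the lysosome (ENSG00000141458, GRCh38 chromosome 18, 23506184 to 23586898), stood at 24.3 FPKM in the shSIK2 library and 71.4 FPKM in the scrambled library, from 4215 reads in the shSIK2 library and 12388 in the scrambled library, lower by 2.94-fold in the shSIK2 library (95% counting interval 2.84 to 3.04). At equal totals it was 2.67-fold lower. For NPC1 the 10 measured genes on each side of it on chromosome 18 had a median log2 ratio of -0.33. Of these 20, 4 were at least 2-fold lower and 2 higher. NPC2, the soluble protein that hands cholesterol to NPC1, lay on the other side, at 23.1 FPKM in the shSIK2 library and 17.7 FPKM in the scrambled library, 1.30-fold higher (1.19 to 1.43). The cholesterol pair thus went opposite ways. The structural glycoprotein LAMP1 stood at 91.2 FPKM in the shSIK2 library and 97.9 FPKM in the scrambled library and LAMP2 at 77.9 FPKM in the shSIK2 library and 92.7 FPKM in the scrambled library. SCARB2, the receptor that carries glucocerebrosidase to lysosomes, stood at 20.1 FPKM in the shSIK2 library and 20.2 FPKM in the scrambled library, and MCOLN1, a calcium channel, at 7.54 FPKM in the shSIK2 library and 6.76 FPKM in the scrambled library. These 4 and NPC2 lay within 1.5-fold (83.3% of the 6), where 59.0% of all genes measured did.

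Of 20 other membrane proteins and transporters, 19 were measured. SIDT2 and ABCB9 were past 2-fold upward (10.5%, against 11.0% of all genes) and LAMP3 downward (5.26%, against 8.28%), and the list had a median log2 ratio of 0.05. LAMP3, a relative of LAMP1 that interferon induces, had 8 reads in the shSIK2 library and 87 in the scrambled library, 10.9-fold lower (5.28 to 25.98), and was measured only through the scrambled library. ABCB9, a peptide transporter, had 437 reads in the shSIK2 library and 134 in the scrambled library, 3.26-fold higher (2.68 to 3.99), and was measured only through the shSIK2 library. SIDT2, a membrane protein that takes up nucleic acids, had 622 reads in the shSIK2 library and 277 in the scrambled library, 2.25-fold higher (1.95 to 2.60). SLC17A5, the sialic acid exporter, stood at 8.25 FPKM in the shSIK2 library and 4.43 FPKM in the scrambled library, short of 2-fold as deposited and 2.05-fold higher at equal totals. Of 9 genes of sorting to the lysosome, mostly by mannose 6-phosphate, all measured, 1 was at least 2-fold higher and 0 lower. That is a share of 11.1% beside 11.0% of all genes measured. The gene past 2-fold was SORT1, the sorting receptor sortilin, with 695 reads in the shSIK2 library and 225 in the scrambled library, 3.09-fold higher (2.65 to 3.61). Sortilin sorts without the mannose 6-phosphate tag, so none of the genes of that tag was past 2-fold. GNPTAB, which makes the mannose 6-phosphate tag, stood at 2.84 FPKM in the shSIK2 library and 1.66 FPKM in the scrambled library and NAGPA, which uncovers it, at 4.73 FPKM in the shSIK2 library and 3.07 FPKM in the scrambled library. M6PR, a receptor that reads the tag, stood at 18.2 FPKM in the shSIK2 library and 24.2 FPKM in the scrambled library, so the makers of the tag and this receptor lay on opposite sides.

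The switch that controls TFEB at the lysosome holds mTORC1, its Rag GTPases, the Ragulator scaffold, folliculin and the phosphatase calcineurin, which acts against mTORC1 on TFEB. Of 22 genes 20 were measured, 16 with a log2 ratio under 0 and 3 above it as deposited and 14 under 0 at equal totals. These are 80.0% and 70.0%, where 55.9% and 48.1% of all genes measured lay under 0. Of those with at least 5 FPKM, 63.6% did as deposited and 54.9% at equal totals. Of the 20, 1 was at least 2-fold lower and 0 higher, where 8.28% of all genes measured were lower and 11.0% higher. The median was -0.45, -0.34 relative to all genes measured and -0.31 at equal totals. RRAGC, a Rag GTPase, stood at 8.40 FPKM in the shSIK2 library and 17.05 FPKM in the scrambled library, lower by 2.03-fold in the shSIK2 library (95% counting interval 1.86 to 2.22), and 1.84-fold lower at equal totals. PPP3CB, a calcineurin catalytic subunit, stood at 13.8 FPKM in the shSIK2 library and 26.2 FPKM in the scrambled library, and FLCN, folliculin, at 4.36 FPKM in the shSIK2 library and 6.91 FPKM in the scrambled library. RRAGA, which pairs with RRAGC, stood at 54.6 FPKM in the shSIK2 library and 85.1 FPKM in the scrambled library. All 4 were lower in the shSIK2 library, RRAGC just past and the others short of 2-fold.

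Of 13 autophagy genes known to carry CLEAR elements, 11 were measured, and MAP1LC3B alone passed 2-fold, and was lower (9.09%, against 8.28% of all genes). Their median was -0.34, or -0.23 relative to all genes. MAP1LC3B, the LC3 protein of autophagosomes, stood at 48.9 FPKM in the shSIK2 library and 102 FPKM in the scrambled library, lower by 2.09-fold in the shSIK2 library (95% counting interval 2.02 to 2.17), and 1.90-fold lower at equal totals. SQSTM1, the cargo receptor p62, stood at 109 FPKM in the shSIK2 library and 163 FPKM in the scrambled library, 1.49-fold lower (1.46 to 1.53). NRBF2 and UVRAG, of the VPS34 lipid kinase complexes, had log2 ratios of -0.82 and -0.59.

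**Figure D3:**
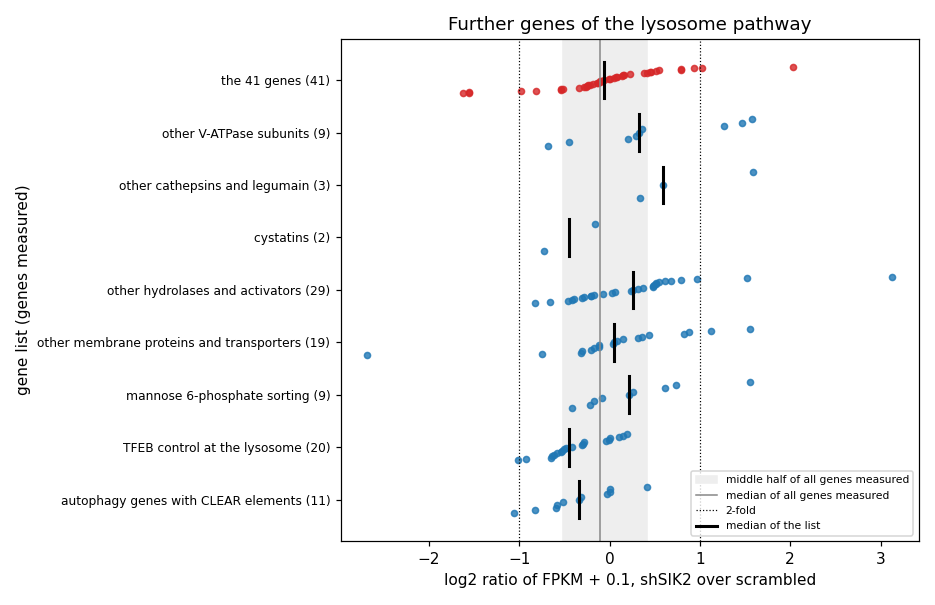
Log2 ratio of FPKM plus 0.1, shSIK2 over scrambled, for the 41 genes and for each further list (points are genes measured, black bars are list medians, the grey band and line give the interquartile range and the median of all genes measured, dotted lines mark 2-fold). The median is -0.45 for the genes of TFEB control and highest, at 0.59, for the 3 other cathepsins, with FUCA1 at 3.13 and LAMP3 at -2.68 as the outermost points.

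GC content went with the differences, and its part in them was not tested beyond removing the trend. Across the 41 genes the log2 ratio and the GC content of the longest transcript had a Spearman rho of 0.39, and across all genes measured one of 0.28. These are descriptions across genes of the same libraries, and genes are no replicates. With the trend in GC content and exon length removed, CTSH (2.13), CTSC (-1.20), CTSK (-1.39) and NPC1 (-1.39) stayed past 2-fold on the log2 scale. TFE3, a GC-rich gene, moved past it to -1.07.

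**Figure D4:**
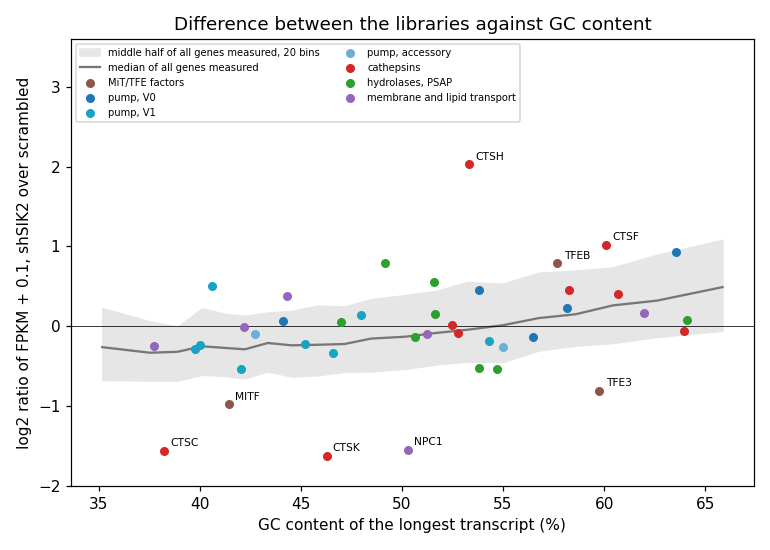
Log2 ratio of FPKM plus 0.1, shSIK2 over scrambled, against the GC content of the longest transcript, with points for the 41 genes coloured by role and a line and band for the median and interquartile range of all genes measured in 20 bins. CTSH at 2.03 stands farthest above the band, and CTSC, CTSK, NPC1, MITF and TFE3 stand well below it.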

How the data were processed

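RNA was extracted with Trizol and sequenced by an Illumina method, per the labels' protocols. The submitters' processing notes name HISAT2 2.0.5 and build hg18. The counter, annotation and strandedness were not stated. Per the file headers, the authors deposited FPKM for 58735 genes, 1 table per library, without counts.

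Every identifier was found in GENCODE release 29 (GRCh38), the source of symbols, coordinates and exon lengths, which is not the build of the notes. FPKM times exon length gave whole multiples of 58.3 for 100% of values above 0 in both tables (tolerance 0.1 read), taken as reads. Depth was 16347399 reads (shSIK2) and 18019225 (scrambled). Genes reaching 1 FPKM in either library were measured, and a 2-fold rule was applied to log2(FPKM + 0.1), which understates differences of low genes. Fold intervals are exact (Clopper-Pearson, conditional on the sum, 95%). The GC and length trends were removed by medians in 20 bins. Each step was tested on simulated data.

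The members and lists were chosen with earlier results of these data known. Genes named are all members and up to 4 of each further list with the largest ratios, and others (such as ATP6V0A2 and ACP5) were chosen after their values were seen. Protein sequences were not used here. Alternatives were scaling to equal totals or upper quartiles, pseudocounts of 1 and 0.01, no minimum or 5 FPKM, a 1.5-fold rule and removal of the trend. Computation used scipy 1.17.1, pandas 2.3.3, matplotlib 3.10.9 and numpy 2.4.6 under Python 3.11.15.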

Additional observations from a re-analysis of the deposited data

How the results depend on the processing

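No paired analysis was possible because each group has 1 library, and no library could be left out. CTSH stayed at least 2-fold higher and CTSC, CTSK and NPC1 at least 2-fold lower with both other scalings, both other pseudocounts and the trend removed (the minimum level does not alter a ratio). The count of higher genes was 2 as reported and 1 with a pseudocount of 1 or with the GC and length trend removed, where CTSF fell short. It was 3 at equal totals or a pseudocount of 0.01, where ATP6V0C joined. The count of lower genes was 3, and 4 with a pseudocount of 0.01 (MITF joined) or the trend removed (TFE3 joined). At 1.5-fold, 5 genes were higher and 5 lower, against 19.7% and 21.3% of all genes. The medians of the 41 genes and of each role stayed within the spread between their members. For roles of few genes that spread is wide, and for the MiT/TFE factors (-0.98 to 0.79) it is their whole range. A change of scaling could hardly carry a median out of it, so this says little about those roles. Over the 8 further lists, 9 of 102 measured genes were higher (8.82%) and 3 lower (2.94%), where 11.0% and 8.28% of all genes were. At equal totals 11 were higher, with SGSH and SLC17A5 added. Lower genes numbered 1 at equal totals and 1 with the trend removed. Higher genes numbered 4 with a pseudocount of 1 and 3 with a minimum of 5 FPKM, where the median was -0.19 against -0.01. A higher minimum tests fewer genes, and the cause of the other shifts was not tested. The settings for these lists, and leaving out ATP6V0C, CTSA and CTSD for shared exons, were chosen after seeing the data. Scaling to equal totals moved 30 of the 41 single ratios past their counting interval. Removing the GC and length trend moved 27, scaling by upper quartile moved 9 and a pseudocount of 1 moved 4.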

Other observations

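A few broadly expressed lysosomal genes were low in these tables and share exons with neighbouring or readthrough genes. CLN3, a lysosomal membrane protein, had 9 reads in the shSIK2 library and 11 in the scrambled library, and 25.2% of its exon bases lie in exons of other genes on its strand. RNASEK, a pump-associated protein, had 48 reads in the shSIK2 library and 41 in the scrambled library, with 36.95% shared, and ATP6V0C, given above, 72.1%. Whether the sharing lowered these counts was not tested. The annotated pseudogenes named for ATP6V0C, ATP6V1G1, ATP6V0E1, ATP6V1E1 and CTSL held at most 5 reads per parent gene in either library.

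Of the cathepsins of restricted expression, CTSE, CTSG and CTSW had 0 reads in both libraries, which allows up to 3 reads in each, and CTSS, the cathepsin of antigen-presenting cells, had 9 reads in the shSIK2 library and 10 in the scrambled library.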
